A study of Mus musculus with 18 samples.

Results

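The 31 genes described here encode Rag GTPases and their folliculin regulators, the MiT/TFE transcription factors, and enzymes, membrane proteins and cargo receptors of the lysosome. They were taken by gene symbol from the 22019 genes of the normalised expression table. All 31 were found and all passed the filter on low values, which kept 16021 genes whose signal exceeded 1, the lowest entry, in 3 or more libraries out of 18. The members were chosen by gene function and selected on the measured signal of these same libraries, and the rule singles out Rragd among the Rag genes. The SUN1L difference of Rragd is therefore given as a description, and its calls within the counts below are no test of it. The counts over the members, those that include Rragd above all, are descriptions too, because which measured values placed the others on the list is not recorded.

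The libraries are polyadenylated RNA-seq of NIH 3T3 cells, a mouse fibroblast line, carrying a doxycycline-inducible construct introduced by retrovirus into Tet-ON 3G cells. SUN1L (SS-HA-Sun1L-KDEL) is the lumenal domain of SUN1 held in the endoplasmic reticulum, a dominant negative that breaks the LINC complex linking nucleus and cytoskeleton, and KDEL (SS-GFP-KDEL) is the GFP control. Each construct is 1 stable puromycin-selected line, with clonality not stated, the KDEL line was also enriched by fluorescence sorting, and every group received 1 μg/ml doxycycline for 48 hr. There were 6 groups of 3 libraries: KDEL and SUN1L cells, each on gels of 1 kPa (soft) and 308 kPa (stiff), and KDEL cells on 308 kPa with 25 μM Y27632 (Y27, an inhibitor of actomyosin contractility) or with 10 μM blebbistatin (a myosin II inhibitor), each for 48 hr. The methods name 3 biological replicates per condition. Neither they nor the labels say that the libraries of a group came from separate cultures, so p-values measure the spread between these libraries only.

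Several libraries need naming before the results. Library 34 is an empty vector library with Y27 by its source name and by the heading in the table, where its column is numbered 35, but its inhibitor field names blebbistatin. It was placed with blebbistatin, and the main results that rest on it are also given without it. By their numbers the libraries fall into run 1 (3 to 12), run 2 (15 to 24) and run 3 (27 to 36). Every group has 1 library in each, and the labels do not say what a run shares. In run 1, library 8 (KDEL, 308 kPa), library 3 (SUN1L, 1 kPa) and library 7 (SUN1L, 308 kPa) had a summed signal of 12741, 8347 and 10730 over 15 cell division genes, against at least 58865 in the other 15. Depth, estimated from the value of 1 read pair, was 12670000 to 19460000 read pairs. Sun1, which also counts reads of the SUN1L construct, was 2785 to 3799 without SUN1L and 38452 to 82617 with it. Summed signal was 552620 to 894340 over 9 fibroblast markers and 226 to 717 over 10 macrophage markers. It was 15.7 to 41.7 over 6 melanocyte markers and 97.9 to 314 over 4 epithelial markers. Of the macrophage markers Cd14 was 80.5 to 401, Csf1r 13.0 to 276.5 and Lyz2 21.4 to 127, while C1qa was at the lowest value throughout. Of the melanocyte markers Pmel was 5.44 to 28.9, while Dct was at the lowest value throughout. The epithelial marker Cdh1 was 88.0 to 311.

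Rag GTPases work as pairs, RagA or RagB with RagC or RagD, that sit on the lysosome surface and bring the kinase complex mTORC1 there when amino acids are plentiful. Folliculin and its partners FNIP1 and FNIP2 act on RagC and RagD, and through them on TFEB, TFE3 and MITF, factors that turn on genes of lysosomes and autophagy when they enter the nucleus. Rragd is itself a known target of these factors. Fibroblasts use the same organelle to degrade collagen and other material taken up from outside and to recycle their own proteins.

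Rragd was the one Rag gene whose level separated SUN1L from KDEL cells. On 1 kPa its normalised signal was 24.4, 35.4 and 20.4 in the KDEL libraries of runs 1, 2 and 3. It was 2.33, 1.0 (the lowest value) and 3.89 in the SUN1L libraries. On 308 kPa the KDEL libraries held 32.4, 37.4 and 15.7 and the SUN1L libraries 5.44, 4.97 and 4.28. SUN1L libraries lay below KDEL libraries in every run on both gels, and neither pair of groups overlapped. On the log2(signal + 1) scale the difference was -3.08 (SE 0.41) on 1 kPa and -2.24 (SE 0.41) on 308 kPa. Without libraries 3, 7 and 8 it was -3.11 and -2.17. A pseudocount of 8 in place of 1 gave -1.72 and -1.45, since the scale shrinks changes of low genes.

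These values rest on few reads. The SUN1L libraries held about 3 read pairs of Rragd in all on 1 kPa and 7 on 308 kPa, against 39 and 42 in the KDEL libraries. Allowing for depth, the ratio of SUN1L to KDEL was 0.0776 on 1 kPa, with an exact 95% interval of 0.0153 to 0.244. On 308 kPa it was 0.178 (0.0675 to 0.4). The intervals cover counting error only, with read pairs pooled over the libraries of a group. They treat read pairs estimated from the signal as counts. Rragd was singled out on these values, so the intervals are no test of its SUN1L difference. Stiff against soft gel within SUN1L cells, the ratio was 2.49 with an interval of 0.569 to 15, so no rigidity difference of Rragd was detectable there at this depth, although the values of those groups did not overlap. In KDEL cells the same ratio was 1.09 (0.686 to 1.73).

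Neither inhibitor gave the Rragd level of SUN1L cells. Rragd was 45.8, 12.6 and 17.2 with Y27 and 25.8, 48.4 and 8.85 with blebbistatin in runs 1, 2 and 3, so each group spread over the range of untreated KDEL cells. The log2 difference from untreated cells was -0.30 (SE 0.70) for Y27 and -0.24 (SE 0.70) for blebbistatin, and 0.39 for blebbistatin without library 34. The ratio of read pairs was 0.896 (95% interval 0.567 to 1.42) with Y27 and 0.949 (0.602 to 1.49) with blebbistatin.

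**Figure D1:**
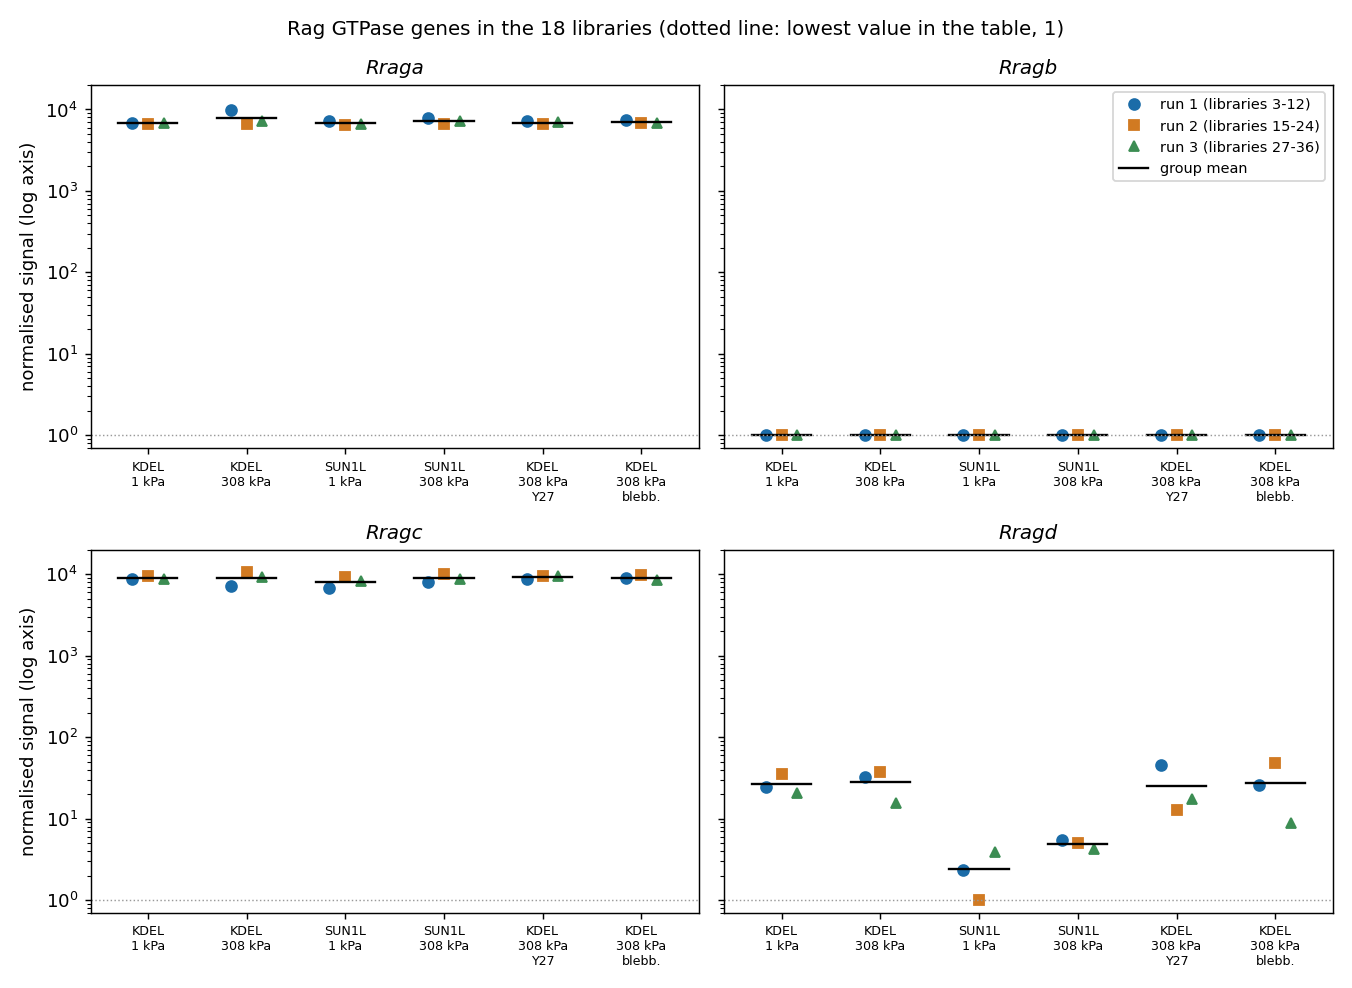
Normalised signal (log axis) of the 4 Rag GTPase genes in each of the 18 libraries, by group; symbols mark the runs, bars the group means, and the dotted line the lowest value in the table. Rraga and Rragc sit between 6487 and 10713 and Rragb at 1 throughout, while the 6 SUN1L libraries of Rragd lie between 1.0 and 5.44.

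The partner genes stood far higher and moved little. Rraga, which encodes RagA, ranged from 6487 to 9971 over the 18 libraries, with its highest value in library 8. Rragc, which encodes RagC, ranged from 6703 to 10713, with its lowest value in library 3. Their log2 differences between SUN1L and KDEL cells were 0.01 (SE 0.15) and -0.16 (SE 0.17) on 1 kPa and -0.13 (SE 0.15) and 0.00 (SE 0.17) on 308 kPa. Rragb, which encodes RagB and is not a member, was at the lowest value in all 18 libraries. Per kilobase of the longest annotated coding transcript, the KDEL groups on 1 kPa averaged 4197 for Rraga, 3054 for Rragc and 5.29 for Rragd, and the SUN1L group on 1 kPa 4219, 2752 and 0.477. Rragd was thus a minor Rag transcript in the KDEL control cells too. In the table's coordinates, which are those of mouse build GRCm38, Rragd (ENSMUSG00000028278) spans chromosome 4 from 32983037 to 33022180 on the plus strand.

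The folliculin complex genes and the MiT/TFE genes differed between SUN1L and KDEL cells by less than the spread between libraries. Flcn, which encodes folliculin, gave log2 differences of 0.04 (SE 0.17) on 1 kPa and 0.07 (SE 0.17) on 308 kPa, with a range of 2347 to 4103 over all libraries. Fnip1 ranged from 2860 to 7840 and Fnip2 from 1196 to 3590, both highest in library 20, the KDEL library of run 2 on 308 kPa. Tfe3 had the highest level of the transcription factors, at 1929 to 2952 and 667 per kilobase in KDEL cells on 1 kPa, against 104 per kilobase for Tfeb and 41.3 for Mitf. Tfec, the remaining gene of that family and not a member, was above the lowest value in 1 library. On 1 kPa the SUN1L difference was 0.09 (SE 0.15) for Tfe3, 0.00 (SE 0.33) for Tfeb and 0.12 (SE 0.28) for Mitf.

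The lysosomal members are enzymes and membrane proteins, and 19 of the 20 were well expressed. Per kilobase in KDEL cells on 1 kPa, Psap, the precursor of the saposins that help break down sphingolipids, stood highest at 17470, followed by Ctsd, an aspartyl protease, at 13130, the membrane protein Lamp1 at 12020 and the cysteine protease Ctsl at 10520. Npc1, the membrane transporter that exports cholesterol, was lowest of the 19 at 345 per kilobase, and Neu1, a sialidase, stood at 446. Ctsf, another cysteine protease, lay between 1.0 and 8.06 in all libraries and is left out of what follows. The cargo receptor Sqstm1 (p62) stood at 7644 per kilobase and Gpnmb, a membrane glycoprotein of lysosomes and melanosomes, at 62.0.

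These 19 genes varied together between libraries, and their order within a group often followed the runs. Over all 171 pairs of the 19 the median correlation across the 18 libraries was 0.60 (-0.43 to 0.94), and it was 0.70 for deviations from the group means. The libraries share runs, so these are descriptions. Among the 114 combinations of 1 gene and 1 group, the library of run 2 was the highest of the 3 in 94, while the lowest was the library of run 1 in 69 and that of run 3 in 44. Averaged over the 19 genes, library 20 lay 0.46 above the 18-library mean on the log2 scale, and libraries 3 and 8 lay 0.36 and 0.37 below it. Scarb2, a lysosomal membrane protein, did not share the pattern, with a correlation of 0.00 with the mean of the other 18. Hexa, a subunit of beta-hexosaminidase, and Ctsa, the protective protein of sialidase and beta-galactosidase, followed it most closely at 0.94 and 0.93. Of the members outside the 19, Fnip2 followed that mean at 0.91, Rragc at 0.89 and Rragd at 0.08, while Rraga ran against it at -0.67.

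**Figure D2:**
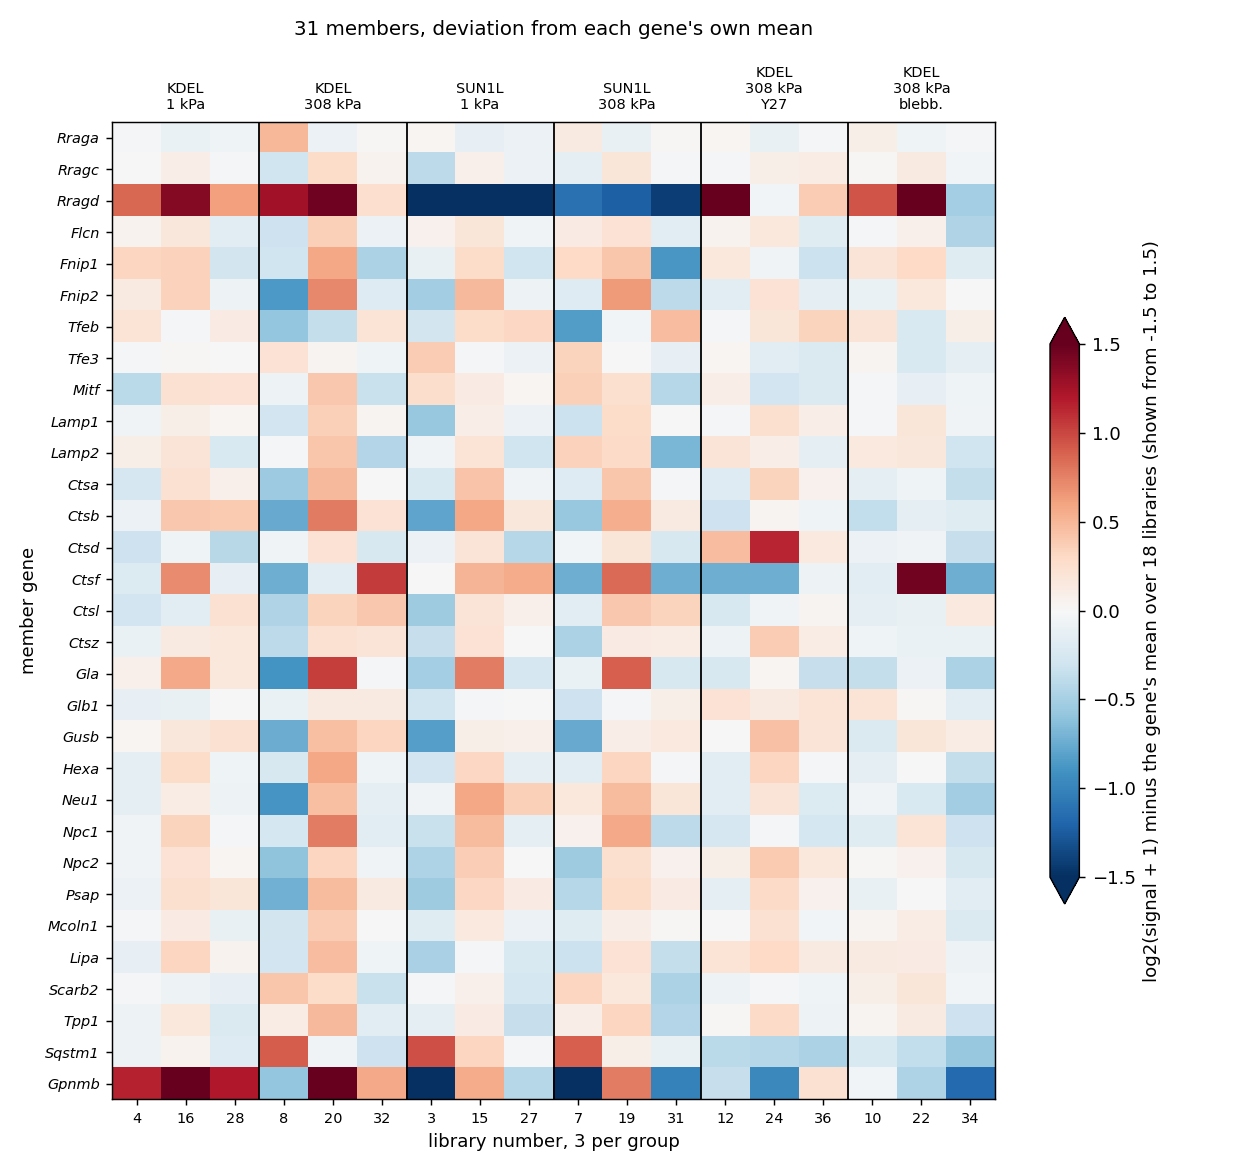
Deviation of each of the 31 members (rows) from its own mean over 18 libraries, as log2(signal + 1), in the 3 libraries of each of 6 groups (columns); red is above and blue below the mean, shown from -1.5 to 1.5. Library 20 is red for nearly all lysosomal rows, while Rragd is blue in the SUN1L columns and Gpnmb is below its mean in 5 of the 6 inhibitor libraries.

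Libraries 3, 7 and 8, low in cell division genes, were also low in the lysosomal mean and high in Sqstm1. The lysosomal mean lay at -0.36, -0.19 and -0.37 in libraries 3, 7 and 8. Sqstm1 lay 0.97, 0.90 and 0.91 above its mean there, and between -0.56 and 0.32 in the other 15. All 3 belong to run 1, whose remaining libraries had lysosomal means of -0.09 to -0.04. Library 34 had a lysosomal mean as low, -0.21, with a cell division mean of 12.19 that was among the highest. The part of cell division in the differences between members was not tested.

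**Figure D3:**
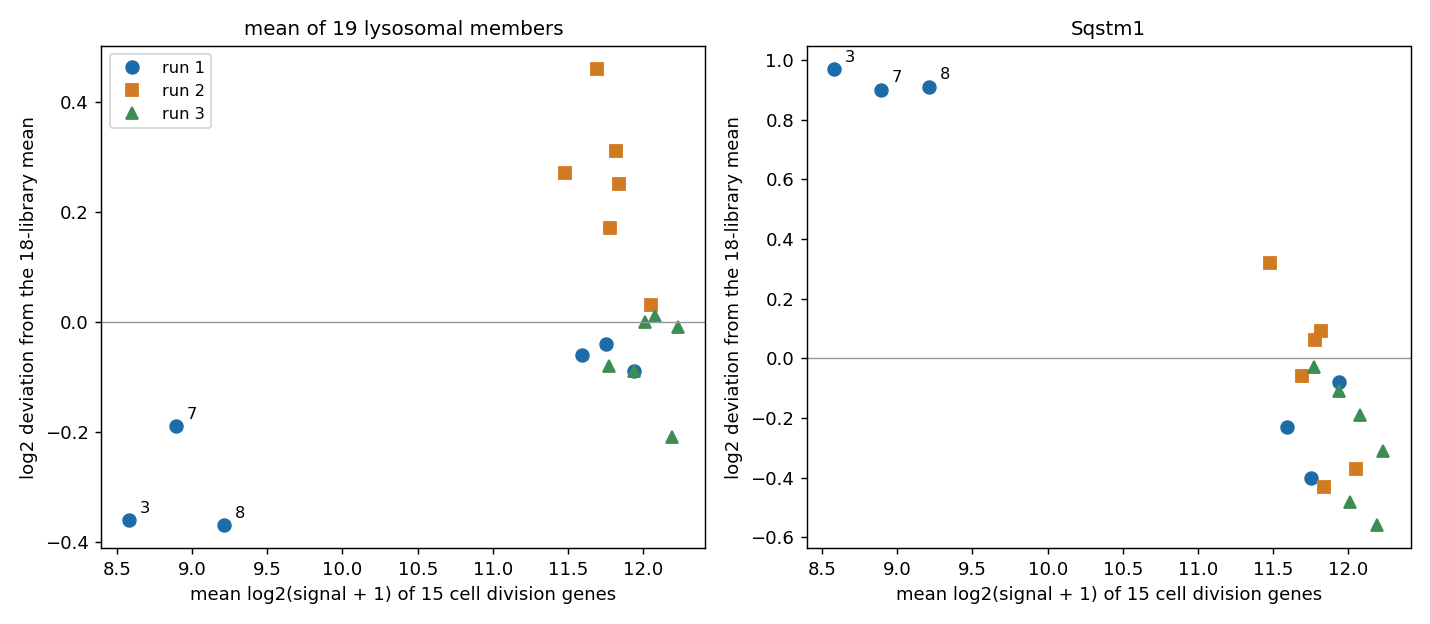
Each point is 1 of 18 libraries, with the mean log2(signal + 1) of 15 cell division genes on the horizontal axis and the log2 deviation from the 18-library mean on the vertical axis, for the mean of 19 lysosomal members (left) and for Sqstm1 (right). Libraries 3, 7 and 8 stand apart at 8.58 to 9.21 on the horizontal axis, below the line on the left and near 0.9 on the right.

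Promoter sequences were searched for 1 motif. TFEB, TFE3 and MITF bind E-boxes, and the letters CACGTG, which read the same on both strands, were searched in RefSeq promoter windows of GRCm38.p6, 250 bases before to 50 after each start. A window existed for 29 of the 31 members, and CACGTG occurred in 9 of these, Rragc, Fnip1, Lamp1, Ctsd, Ctsf, Ctsl, Gla, Glb1 and Mcoln1, against 7.15% of 32851 windows of all genes. The longer form TCACGTGA, which contains CACGTG, occurred in 3 member windows, Ctsd, Gla and Mcoln1, and in 0.974% of all windows. A match is a match of letters and not a shown binding site. The members were chosen by gene function, and these factors are known to turn on lysosomal genes. The share among the members is therefore not independent of the choice and is given as a description. For members with more windows, such as Tfeb with 3, 1 window was read. The windows of Rragd and Gpnmb, which differed most between SUN1L and KDEL cells, of Ctsd, which was highest with Y27, and of Lamp1, which had the most matches (4), are printed 5′ to 3′ with CACGTG in capitals. They lie at chr4:32982748-32983047 (plus strand, Rragd), chr6:49036268-49036567 (plus strand, Gpnmb), chr7:142387778-142388077 (minus strand, Ctsd) and chr8:13158911-13159210 (plus strand, Lamp1).
Rragd: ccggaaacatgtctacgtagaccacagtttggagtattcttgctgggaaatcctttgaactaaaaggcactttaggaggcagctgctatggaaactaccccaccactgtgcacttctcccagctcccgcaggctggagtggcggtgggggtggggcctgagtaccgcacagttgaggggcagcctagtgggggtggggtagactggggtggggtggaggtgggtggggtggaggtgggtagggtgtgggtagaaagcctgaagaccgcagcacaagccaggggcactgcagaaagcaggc
Gpnmb: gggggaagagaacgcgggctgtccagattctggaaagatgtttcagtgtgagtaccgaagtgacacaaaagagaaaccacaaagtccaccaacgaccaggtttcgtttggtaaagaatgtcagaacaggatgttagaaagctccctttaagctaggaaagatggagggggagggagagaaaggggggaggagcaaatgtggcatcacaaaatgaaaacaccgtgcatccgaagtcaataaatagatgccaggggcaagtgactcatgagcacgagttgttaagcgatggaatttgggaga
Ctsd: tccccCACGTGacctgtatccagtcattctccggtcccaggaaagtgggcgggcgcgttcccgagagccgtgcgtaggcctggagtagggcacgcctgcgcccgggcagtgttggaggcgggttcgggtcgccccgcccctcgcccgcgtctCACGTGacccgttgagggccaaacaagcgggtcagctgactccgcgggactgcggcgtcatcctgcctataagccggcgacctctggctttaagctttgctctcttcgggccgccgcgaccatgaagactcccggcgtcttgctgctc
Lamp1: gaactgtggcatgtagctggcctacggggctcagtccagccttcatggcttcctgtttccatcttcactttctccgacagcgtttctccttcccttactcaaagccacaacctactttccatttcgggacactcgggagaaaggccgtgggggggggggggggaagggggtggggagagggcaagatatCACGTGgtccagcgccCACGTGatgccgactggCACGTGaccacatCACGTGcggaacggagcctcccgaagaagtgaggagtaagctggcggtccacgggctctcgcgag
The Rragd and Gpnmb windows hold no CACGTG, which says only that these letters are not in these 300 bases.

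Comparing SUN1L with KDEL cells on one gel was meant to ask what breaking the LINC complex does at that rigidity. Each construct is 1 line and the KDEL line was also sorted, so construct, line and sorting cannot be told apart. Gpnmb was the member with the largest difference after Rragd. On 1 kPa Gpnmb was 196, 307 and 203 in KDEL cells and 28, 129 and 64.9 in SUN1L cells, with no overlap. On 308 kPa it was 58.4, 329 and 130 in KDEL cells and 29.0, 150 and 42.8 in SUN1L cells, where the groups overlapped but the SUN1L library was the lower one within every run. The log2 difference was -1.88 (SE 0.76; adjusted p = 0.93, limma) on 1 kPa and -1.23 (SE 0.76; adjusted p = 1.0) on 308 kPa. Within runs it was -2.77, -1.24 and -1.63 on 1 kPa and -0.99, -1.12 and -1.58 on 308 kPa. With the run as a block the adjusted p was 0.123 and 0.572. Over both rigidities together the difference was -1.55 (SE 0.54; adjusted p = 0.601), and with the run as a block Gpnmb was called (adjusted p = 0.0332). Without libraries 3, 7 and 8 the difference over both rigidities was -1.34.

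Few other members stood out between SUN1L and KDEL cells. Rragd is included in the counts that follow, and nothing is read from its part in them, since the rule used its values. Calls needed a change of 2-fold or more and an adjusted p (Benjamini-Hochberg, over all genes tested) below 0.05. On 1 kPa limma called 1 of 31 members, Rragd, where 0.0874% of all genes tested were called, and 2 members, Rragd and Gpnmb, had an unadjusted p under 0.05 where 4.54% of all genes did. With the run as a block 4 members passed that p, Rragd, Gpnmb, Lipa and Sqstm1, where 14.1% of all genes did. On 308 kPa limma called no member (0.0624% of all genes called), 1 member, Rragd, passed the unadjusted p (2.53% of all genes) and 3, Rragd, Gpnmb and Neu1, passed it with the block (5.92%). Over both rigidities 1 member was called (0.181% of all genes), 2 passed the unadjusted p (6.8%) and 2, Rragd and Gpnmb, were called with the block (0.362%). The count of 1 called on 1 kPa became 0 without libraries 3, 7 and 8. A z-test of proportions on summed signal, modelled on the z-scores of the study's methods, called Gpnmb on each gel. It called 729 of the 16021 genes tested on 1 kPa and 349 on 308 kPa. Since it sums the libraries of a group, it takes no account of the spread between them. The median log2 difference of the 31 members was -0.07 on 1 kPa and -0.01 on 308 kPa, beside -0.01 and -0.03 over all genes tested.

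The members that passed only with the block differed by small amounts. Lipa, the acid lipase that frees cholesterol from lipoproteins, was 1848, 2530 and 2091 in KDEL cells on 1 kPa and 1435, 1992 and 1719 in SUN1L cells, lower in each run, with a log2 difference of -0.33 (SE 0.22). Neu1 was 610, 1540 and 1022 in KDEL cells on 308 kPa and 1255, 1564 and 1282 in SUN1L cells, a difference of 0.46 (SE 0.29) that was 0.17 without libraries 3, 7 and 8. Sqstm1 on 1 kPa was 20247, 22256 and 18797 in KDEL cells and 41912, 26764 and 20958 in SUN1L cells. Its difference was 0.49 (SE 0.37) with all libraries and 0.22 without libraries 3, 7 and 8. Neither with nor without the block did Lipa, Neu1 or Sqstm1 reach an adjusted p under 0.05.

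Marker genes moved in the same comparisons. All 15 cell division genes lay below 0 in SUN1L cells on both gels, with a median log2 difference of -1.40 on 1 kPa and -0.18 on 308 kPa, and all 15 lay above 0 with either inhibitor, with medians of 0.86 for Y27 and 0.94 for blebbistatin. By limma none of the 15 had an unadjusted p under 0.05 in these comparisons, but with the run as a block 12 of the 15 were lower at that p on 1 kPa. Without library 34 the median with blebbistatin was 0.80. The untreated group includes library 8, where the mean log2 signal of the 15 genes was 9.21, against 11.69 and 12.23 in its other libraries. That mean was 11.75, 11.84 and 12.01 with Y27 and 11.59, 12.05 and 12.19 with blebbistatin. On 1 kPa it was 8.58 in library 3, 11.48 and 11.77 in the other SUN1L libraries, and 11.94, 11.78 and 12.08 in KDEL cells. Of the macrophage markers, Csf1r differed by 1.75 (SE 0.71, adjusted p = 1.0) between SUN1L and KDEL cells on 308 kPa, opposite in sign to Gpnmb, and no melanocyte or epithelial marker passed an unadjusted p of 0.05 in any comparison within a gel or with an inhibitor. Their part in the members' values was not tested.

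**Figure D4:**
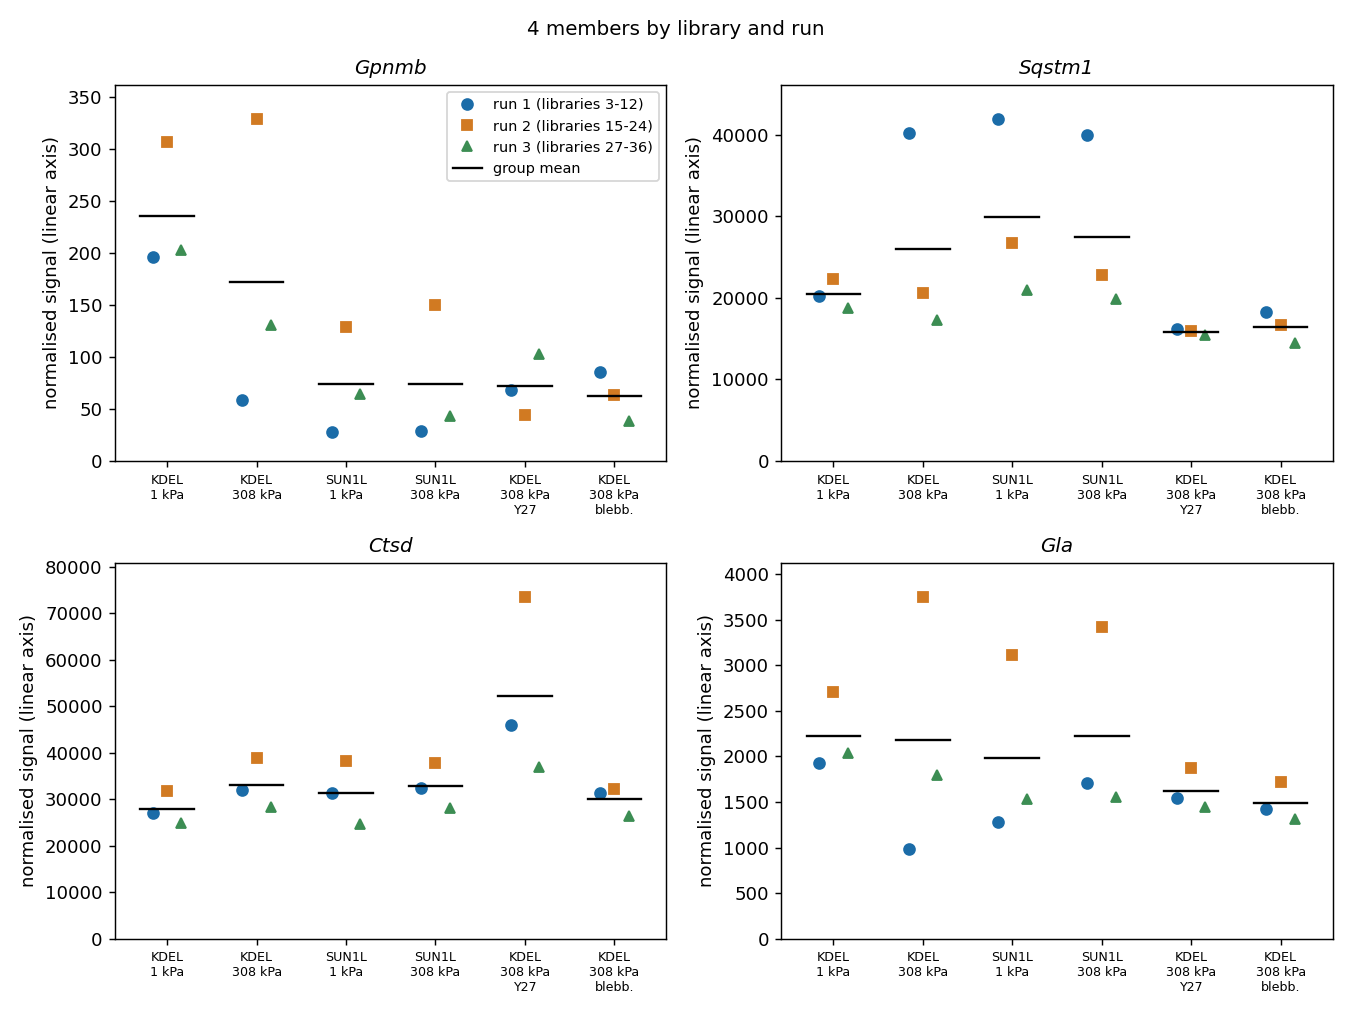
Normalised signal (linear axes from 0) of Gpnmb, Sqstm1, Ctsd and Gla in each of the 18 libraries, by group, with symbols for the runs and bars for the group means. Gpnmb reaches 329 in KDEL cells and at most 150 in SUN1L cells, Sqstm1 reaches 39935 to 41912 in 3 libraries of run 1, Ctsd is highest with Y27 in each run, and Gla is highest in run 2 in every group.

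Rigidity, the comparison that asks whether cells read the stiffness of the gel at these genes, moved no member past the threshold. In KDEL cells limma called 0 of 31 members and 0 had an unadjusted p under 0.05, where 0.0% and 1.37% of all genes did. In SUN1L cells the counts were 0 and 0, where 0.0% and 1.93% of all genes did. The interaction of SUN1L and rigidity, called at a Bonferroni p under 0.05, gave 0 and 0, where 0.0% and 0.905% of all genes did. The z-test called 0 members in either rigidity comparison, and 297 and 174 of the 16021 genes tested in KDEL and SUN1L cells. The log2 differences ran from -0.76 (Gpnmb) to 0.25 (Sqstm1) in KDEL cells and from -0.56 to 0.88 (Rragd) in SUN1L cells.

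Several rigidity differences followed single libraries or runs. Rraga was 6904, 6592 and 6765 on 1 kPa and 9971, 6661 and 7139 on 308 kPa in KDEL cells, a log2 difference of 0.21 (SE 0.15) that became 0.03 without libraries 3, 7 and 8. Gla, the alpha-galactosidase that trims glycolipids, was 1932, 2708 and 2038 on 1 kPa and 979, 3749 and 1799 on 308 kPa in the same cells. Within runs its difference was -0.98, 0.47 and -0.18, and all 19 lysosomal genes were higher on 308 kPa in run 2 against 4 of 19 in run 1 and 9 of 19 in run 3. Ctsd was higher on 308 kPa in each run, by 0.25, 0.29 and 0.18 on the log2 scale (unadjusted p = 0.278, and 0.0401 with the run as a block, with adjusted p = 0.781).

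Y27 and blebbistatin were given to KDEL cells on 308 kPa to ask whether loss of myosin force acts on the same genes. Ctsd was the member with the largest log2 difference between the inhibitors, and it did not pass the threshold. Ctsd was 46011, 73551 and 37038 with Y27, 32097, 38871 and 28264 in untreated cells and 31450, 32165 and 26295 with blebbistatin. The Y27 library was the highest of the 3 within every run, and the Y27 and blebbistatin groups did not overlap. The log2 difference was 0.61 (SE 0.26, ratio 1.53, adjusted p = 0.789, limma) for Y27 against untreated and -0.14 (SE 0.26, adjusted p = 0.947) for blebbistatin against untreated, or -0.04 without library 34. Directly between the inhibitors it was 0.75 (SE 0.26, ratio 1.68, unadjusted p = 0.0215, adjusted p = 1.0), and 0.65 without library 34. Ctsd (ENSMUSG00000007891) lies on chromosome 7 from 142371148 to 142388038 on the minus strand. The window printed above holds CACGTG at 245 and 98 bases before the RefSeq start it was built on. That start is not the gene start in the expression data's coordinates.

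Sqstm1 was low with either inhibitor. It was 16227, 15929 and 15401 with Y27 and 18285, 16616 and 14481 with blebbistatin, against 40172, 20567 and 17225 in untreated cells. The Y27 libraries lay below all untreated libraries, and each blebbistatin library lay below the untreated library of its run. The log2 difference was -0.61 (SE 0.29, adjusted p = 0.789) with Y27 and -0.56 (SE 0.29, adjusted p = 0.89) with blebbistatin. Without library 34 the blebbistatin value was -0.47. Without libraries 3, 7 and 8 the differences became -0.25 and -0.20, since library 8 held the highest untreated value.

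Gpnmb with the inhibitors moved differently from run to run. It was 68.6, 44.2 and 103 with Y27 and 85.4, 63.0 and 38.5 with blebbistatin, against 58.4, 329 and 130 untreated. Both inhibitors were above untreated cells in run 1 and below them in runs 2 and 3. The log2 difference was -0.99 (SE 0.64) with Y27 and -1.19 (SE 0.64) with blebbistatin, which was -0.88 without library 34. Tfe3 was a little lower than untreated in every run, at -0.19, -0.20 and -0.15 with Y27 and -0.18, -0.27 and -0.08 with blebbistatin on the log2 scale, and neither reached an adjusted p under 0.05 (0.447 and 0.612 with the run as a block). Without library 34 its blebbistatin difference was -0.16.

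Over the whole list limma called 0 of 31 members with Y27 (0.0% of all genes called), and 1 member, Ctsd, had an unadjusted p under 0.05 where 6.05% of all genes did. With the run as a block 3 members, Ctsd, Sqstm1 and Tfe3, passed that p where 10.5% of all genes did. Ctsd no longer passed the unadjusted p without library 34, when no member did, without the run of libraries 3 to 12, when Ctsl did, or without libraries 3, 7 and 8, when Ctsb, Ctsl and Gpnmb did. With blebbistatin 0 members were called (0.0%), 0 passed the unadjusted p (4.21%) and 1, Tfe3, passed it with the block (7.57%). The z-test with blebbistatin called Gpnmb, among 480 of the 16021 genes tested. Between the inhibitors 0 were called (0.0%), and 1, Ctsd, passed the unadjusted p (2.83%), which was 0 without library 34. The median log2 difference of the members was 0.02 with Y27, -0.07 with blebbistatin and 0.12 between the inhibitors, beside 0.01, 0.00 and 0.00 over all genes tested. Without library 34 the median was -0.01 both with blebbistatin and between the inhibitors.

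The lysosomal genes as a group did not hold 1 direction against untreated cells. With Y27, 17 of the 19 were above untreated cells in run 1, 3 in run 2 and 10 in run 3. With blebbistatin the counts were 16, 0 and 2. The run 1 comparison uses library 8, whose 15 cell division genes were low. Set directly against blebbistatin, the Y27 library was higher at 8 of the 19 in run 1, 16 in run 2 and 17 in run 3, with a median log2 difference of -0.01, 0.17 and 0.21. The run 3 value rests on library 34.

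**Figure D5:**
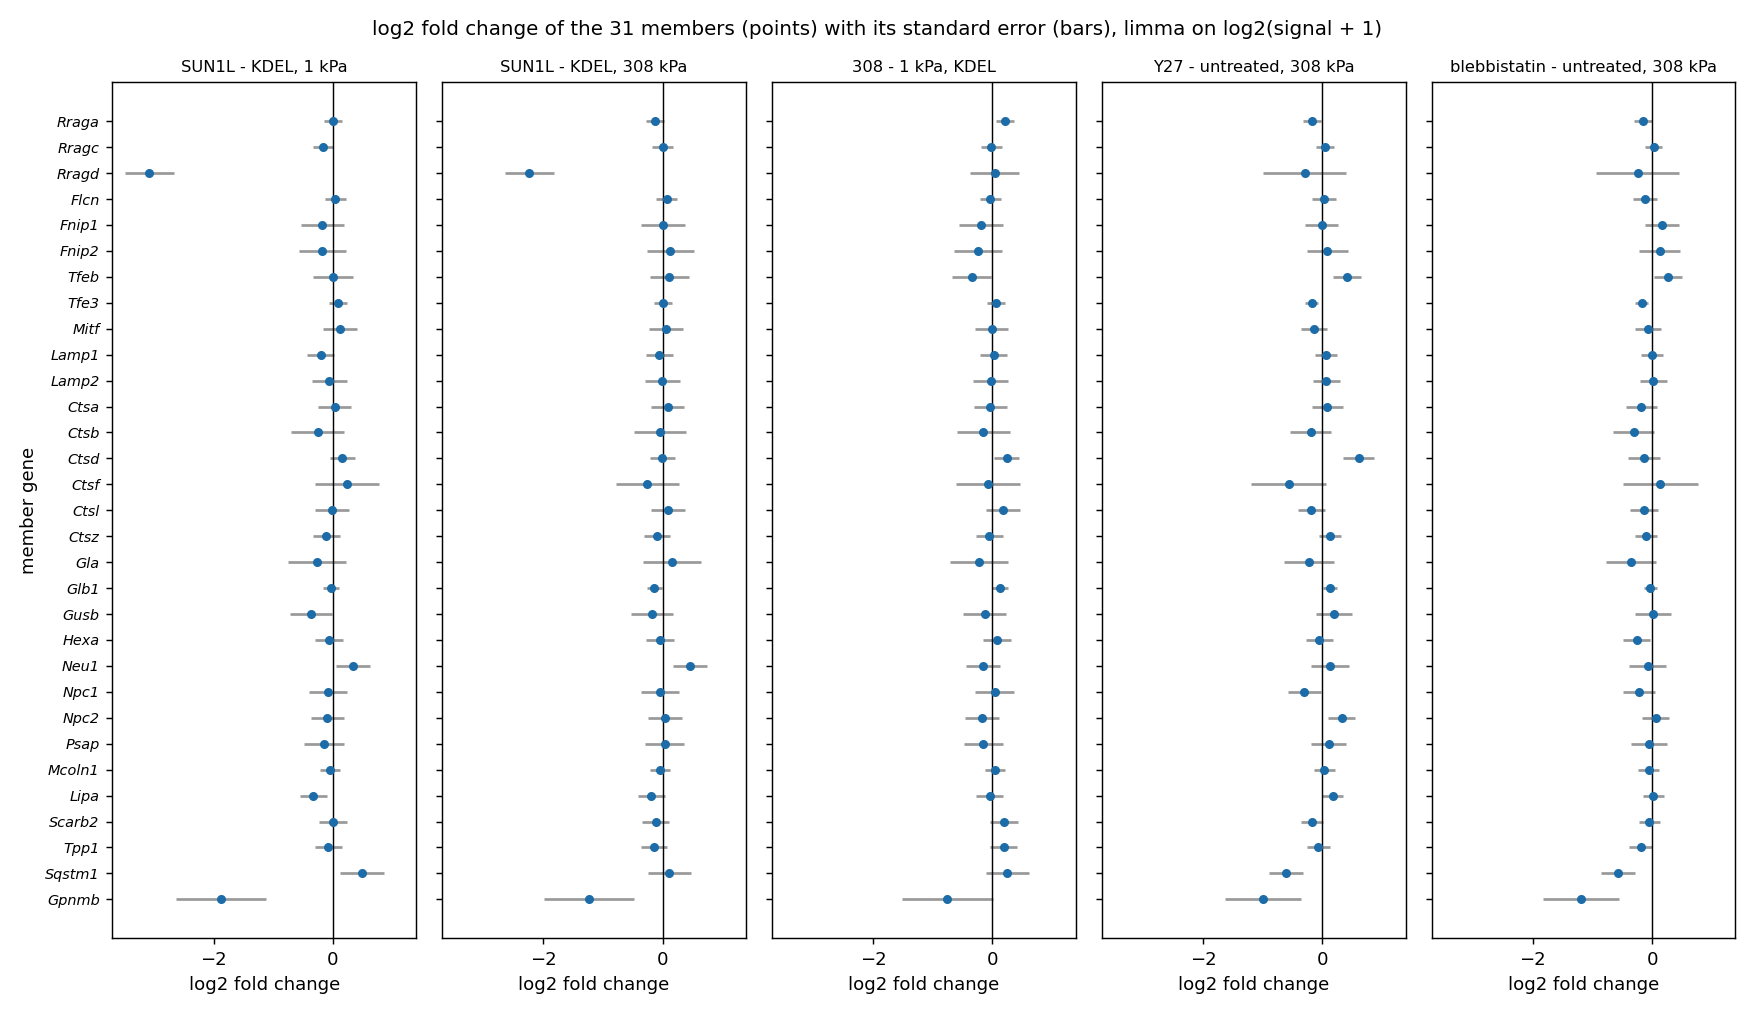
Log2 fold change (points) with its standard error (bars) for the 31 members in 5 comparisons, from limma on log2(signal + 1). In both SUN1L panels Rragd and Gpnmb lie farthest left, and with Y27 Ctsd lies farthest right at 0.61.

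Genes of the pathway outside the members were read from 9 further lists, with 126 genes tested. In no comparison did limma call any of the 126, with or without the run as a block. On 1 kPa 4 were higher and 0 lower in SUN1L cells at an unadjusted p under 0.05, and on 308 kPa 2 were higher and 2 lower. Those are 3.17% of the 126 on each gel, beside 4.54% and 2.53% of all genes, and with the run as a block they were 11.1% and 10.3%, beside 14.1% and 5.92%. Tsc2, an inhibitor of mTORC1 signalling, was 3462, 3462 and 3427 in KDEL cells and 4490, 4428 and 4401 in SUN1L cells on 1 kPa, and its log2 difference was 0.36 (SE 0.09, adjusted p = 0.517). On 308 kPa Tsc2 differed by 0.24 (SE 0.09, adjusted p = 1.0). Wdr24, a subunit of the GATOR2 complex that passes on amino acid signals, differed by 0.55 (SE 0.14, adjusted p = 0.663) on 1 kPa, and Mlst8, a subunit of mTORC1, by 0.40 (SE 0.15). Gnptg, part of the enzyme that makes the mannose 6-phosphate tag, differed by 0.44 (SE 0.16) on 1 kPa and 0.36 (SE 0.16) on 308 kPa.

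Of the 32 other lysosomal hydrolases tested, 26 lay below 0 in SUN1L cells on 1 kPa and 29 on 308 kPa, with a median of -0.12 and -0.13 beside -0.01 and -0.03 over all genes. Lysosomal genes varied together between libraries, so these signs are not separate observations. At an unadjusted p under 0.05 none was lower on 1 kPa (4.54% of all genes passed) and 2 were on 308 kPa (2.53%), or 2 and 4 with the run as a block (14.1% and 5.92%). Sgsh, a sulphatase of heparan sulphate breakdown, was 620, 663 and 644 in KDEL cells on 308 kPa and 494, 504 and 447 in SUN1L cells (log2 difference -0.41, SE 0.14, adjusted p = 1.0). Ctsh, a cysteine protease, differed by -0.80 (SE 0.26, adjusted p = 1.0) on 308 kPa. It was 3.80, 1.97 and 1.96 in KDEL cells and at the lowest value, 1.0, in each SUN1L library there, so its difference rests on very few reads. Sgsh and Ctsh were the 2 hydrolases lower on 308 kPa without the block. The 17 vacuolar ATPase genes, whose products acidify the lysosome, held no gene at that p in any comparison on either gel or with either inhibitor, nor did the 7 amino acid sensors. With the run as a block 2 ATPase genes were lower on 1 kPa, 1 was higher on 308 kPa, 4 were lower with Y27 and 3 with blebbistatin, and 1 sensor was higher with Y27. The 13 other lysosomal membrane proteins held none on either single gel, with medians of -0.04 and -0.05, and with the block 1 was lower on 1 kPa and 2 were higher on 308 kPa.

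Ragulator, the anchor that holds the Rag proteins on the lysosome, had 2 of 5 genes higher with Y27 at an unadjusted p under 0.05, with or without the run as a block, where 6.05% of all genes passed without it and 10.5% with it. Lamtor4 was 579, 737 and 823 untreated and 945, 1009 and 1062 with Y27, a log2 difference of 0.51 (SE 0.14, adjusted p = 0.707). Lamtor2 was 872, 769 and 864 untreated and 1071, 957 and 1074 with Y27, a difference of 0.31 (SE 0.10, adjusted p = 0.707). Neither group overlapped its untreated group, and neither gene passed the threshold. Arsa, a hydrolase that removes sulphate from sulphatides, differed by 0.50 (SE 0.15, adjusted p = 0.707) with Y27. The fibroblast marker Col1a1 moved in the same libraries, by 0.98 (SE 0.28) with Y27 and 0.71 (SE 0.28) with blebbistatin, or 0.62 without library 34, and its part in these values was not tested.

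The genes whose pattern over the 18 libraries was most like that of Rragd were searched among 12512 genes. They were Xlr4a (Pearson r of 0.89), Tmem181a (0.89), Pof1b (0.88), Zfp936 (0.87) and Luzp4 (0.87). Xlr4a and Pof1b were themselves low, at 1.0 to 27.3 and 1.0 to 34.8. For the mean of the 19 lysosomal members close genes were Atp6ap2 (0.94), an accessory subunit of the vacuolar ATPase, Slc45a3 (0.91) and Steap3 (0.90). These are correlations over 18 libraries that share 3 runs and are given as descriptions.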

How the data were processed

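Processed expression values of 18 libraries were used. Per the methods, the authors aligned paired reads with TopHat2 (2.0) to mm9, filtered them on quality, mates and duplicates and normalised them by TMM in AvadisNGS; the deposited values are a linear signal with a lowest value of 1, and the table's gene positions are those of GRCm38. Between 46.7% and 49.5% of low values were whole multiples of 1 read pair within 2%, so no count test was used for calls. Only the intervals given for Rragd treat estimated read pairs as counts. The members and gene lists were chosen with earlier results of these data known.

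Differences were tested with limma 3.58.1 (R 4.3.3) on log2(signal + 1), with a mean per group and a variance trend, in 1 fit of the 12 KDEL and SUN1L libraries and 1 of the 9 libraries on 308 kPa without SUN1L. Adjustment ran over all 16021 genes tested. Samples numbered in the same run deviated together (median correlation 0.525 over 45 pairs of libraries, 0.15 to 0.904, against -0.233 for other runs), so values with the run as a block are printed where they change a call. The fit was checked on simulated data. The simulated libraries were independent and had no run effect, so the check does not cover deviations shared within a run. Named genes were all 31 members, Sun1, at most 4 genes per other list with an unadjusted p under 0.05 (smallest first) and the 5 most alike genes (some are not reported here), with cell division, fibroblast, macrophage, melanocyte and epithelial lists as markers. Rragb, Tfec, C1qa, Cd14, Lyz2, Dct, Pmel and Cdh1 are named outside that rule. Transcript lengths came from GENCODE M1.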

Additional observations from a re-analysis of the deposited data

Results flagged for a closer look

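Ctsd was marked because its differences from untreated cells had opposite signs: the Y27 library was above and the blebbistatin library below the untreated library in each of the 3 runs. The log2 difference from untreated KDEL cells was 0.61 with Y27 and -0.14 with blebbistatin. The blebbistatin difference was smaller than its standard error, and its run 3 value rests on library 34. The direct comparison of the inhibitors gave 0.75, with an unadjusted p of 0.0215 and an adjusted p of 1.0 by limma, so the difference did not pass the threshold over all genes. Without library 34, whose labels conflict, it was 0.65. Over the alternatives tried its adjusted p ran from 0.338 to 1.0.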

How the results depend on the processing

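The number of members called in each comparison was recomputed under other filters, pseudocounts, scalings, fits and tests, and without each library. On 1 kPa the count for SUN1L against KDEL, 1, became 0 with no filter on low values, with all 18 libraries in 1 fit, without the run of libraries 3 to 12 and without libraries 3, 7 and 8 (the last chosen after seeing the data, as were array weights), and 2 with the z-test of proportions. Leaving out single libraries gave 0 to 1, with 0 in 6 of 12 fits, those without library 3, 4, 15, 16, 19 or 28. The log2 difference of Rragd, the member counted, ran from -3.39 to -2.74. Rragd was singled out on these values, so neither this count nor its range is a test of Rragd. On 308 kPa the count, 0, became 2 with the z-test and 1 in the comparison over both rigidities. With blebbistatin the count, 0, became 1 with the z-test. The counts for rigidity, the interaction, Y27, and Y27 against blebbistatin stayed at 0 under every alternative run, and leaving out single libraries gave 0 to 0 in all comparisons but SUN1L on 1 kPa. The labels number no replicates, so the run served as the replicate block. It changed no member call within a single gel or with an inhibitor: it gave 1 call on 1 kPa and 0 elsewhere, and added Gpnmb over both rigidities. Of the log2 differences of single members, 5137 stayed within 1 SD of the spread between libraries and 32 moved further, most of them of Rraga or Neu1. Over all genes, calls on 1 kPa (14) and 308 kPa (10) became 729 and 349 with the z-test, 1 and 2 without the run of libraries 3 to 12, and 7 and 5 without libraries 3, 7 and 8; array weights gave 55 on 1 kPa, and leaving out single libraries 8 to 15. Where limma called 0 genes, the z-test called 297 and 174 for rigidity in KDEL and SUN1L cells, 537 with Y27, 480 with blebbistatin and 266 between them. The causes were not tested. With 3 libraries a group and about 16340000 read pairs a library, Rragd and Ctsf could be read only within counting error.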

Other observations

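Of 26 autophagy genes outside the members, 17 lay below 0 with Y27 and 22 with blebbistatin, with medians of -0.08 and -0.14 on the log2 scale beside 0.01 and 0.00 over all genes, and 2 were lower at an unadjusted p under 0.05 in each comparison, where 6.05% and 4.21% of all genes passed. With the run as a block 5 and 8 were lower, where 10.5% and 7.57% of all genes passed. Without library 34, 20 lay below 0 with blebbistatin, with a median of -0.10, and 1 was lower at an unadjusted p under 0.05. Gabarapl2, a gene of that list, was 1997, 1954 and 2044 in untreated KDEL cells on 308 kPa. It was 1557, 1752 and 1716 with Y27 and 1624, 1646 and 1680 with blebbistatin, with no overlap with untreated cells. Its log2 difference was -0.26 (SE 0.07, adjusted p = 0.707, limma) and -0.28 (SE 0.07, adjusted p = 0.89), the latter -0.29 without library 34. These comparisons share the untreated libraries, library 8 among them, so the signs are not separate observations. Wipi2, another gene of the list, was 5627 in library 8 against 3652 and 3824 in the other untreated libraries, while Gabarapl2 did not stand out there. The part of library 8 in these differences was not tested. No gene of the list passed the threshold in either comparison.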
